A study of Bos taurus with 9 samples.

Results

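A total of 10077 control H3K9ac peaks carried no acetyl peak after butyrate and no H3K27ac peak before it, and they are called lost H3K9ac sites here. They were chosen from 74114 control H3K9ac peaks on the 30 nuclear chromosomes (13.6% of them, 95% Wilson interval 13.4 to 13.8), among 673837 nuclear peaks in the 8 lists of the series. A control H3K9ac peak was taken when no peak of butyrate H3K9ac, butyrate H3K27ac or control H3K27ac shared at least 1 bp with it. The choice thus rested on the presence or absence of peaks in these 4 acetyl lists, and their values at the sites are given as a description. The lists hold only peak positions, with no height, so a site without a peak is a site where the caller listed none, and the level of acetylation left there was not measured.

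The cells were MDBK, an established epithelial line from bovine kidney (the labels give the breed as Holstein), either untreated (control) or grown with 5 mM butyrate for 24 h. Chromatin immunoprecipitation sequencing (ChIP-seq), in which DNA bound to a protein or histone mark is recovered and sequenced, was performed with antibodies to H3K9ac, H3K27ac, RNA polymerase II (Pol II) and H3K9me3 in both conditions. Each combination had 1 library, 8 in all, and the input library, which is DNA without immunoprecipitation, was not analysed here. With a single library in each group there was no replicate to set a difference against, so no test was run. The intervals cover counting error over peaks only. Peaks that lie close together are not independent. Control libraries came from lane 4 and butyrate libraries from lane 5, so that lane and treatment cannot be told apart, and the read depth behind the lists was not used here. The lists ranged from 25623 nuclear peaks (control H3K9me3) to 187465 (butyrate H3K27ac).

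Lysine acetylation on histone H3 is written by acetyltransferases and removed by histone deacetylases. H3K9ac is found mainly at active promoters, and H3K27ac marks active promoters and enhancers. H3K9me3 is a mark of heterochromatin, and a lysine at position 9 of one histone tail cannot carry acetyl and methyl groups at the same time. Butyrate is a short-chain fatty acid from microbial fermentation that inhibits histone deacetylases, so a site that no longer has an acetyl peak after butyrate goes against the overall direction in which such an inhibitor acts on histone acetylation.

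The first question was how large the group of lost H3K9ac sites was among all fates of control H3K9ac. Of the control H3K9ac peaks, 51.4% (38080) had no butyrate H3K9ac peak, and the lost H3K9ac sites were 26.5% of these (95% Wilson interval 26.0 to 26.9). Presence in the 3 other acetyl lists divided the control peaks into 8 classes. The largest class, 22905 peaks, was overlapped in all 3 lists, and the next, 15154 peaks, had H3K27ac in both conditions but no butyrate H3K9ac. The lost H3K9ac sites were the third largest. A further 7693 peaks lacked H3K27ac in control, had lost H3K9ac and carried H3K27ac after butyrate, and 3150 kept H3K9ac without H3K27ac in either condition. Among the 29395 control H3K9ac peaks that had no H3K27ac to begin with, 60.5% (59.9 to 61.0) had no H3K9ac peak after butyrate, and 34.3% (33.7 to 34.8) had no acetyl peak of either kind.

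The lost H3K9ac sites were short. Their median length was 235 bp (95% binomial interval of the median, 234 to 236; quartiles 205 and 284), compared with 319 bp (317 to 320) for the other 64037 control H3K9ac peaks. The median was higher the more of the 3 lists had a peak, from 247 to 267 bp with 1 list, 277 to 315 bp with 2 and 457 bp with all 3. The shortest length that the lists contain, 199 bp, was that of 18.7% of the lost H3K9ac sites and 6.54% of the other peaks. Owing to their length, the sites held 13.6% of the control H3K9ac peaks but 9.03% of the bases that these peaks covered.

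**Figure D1:**
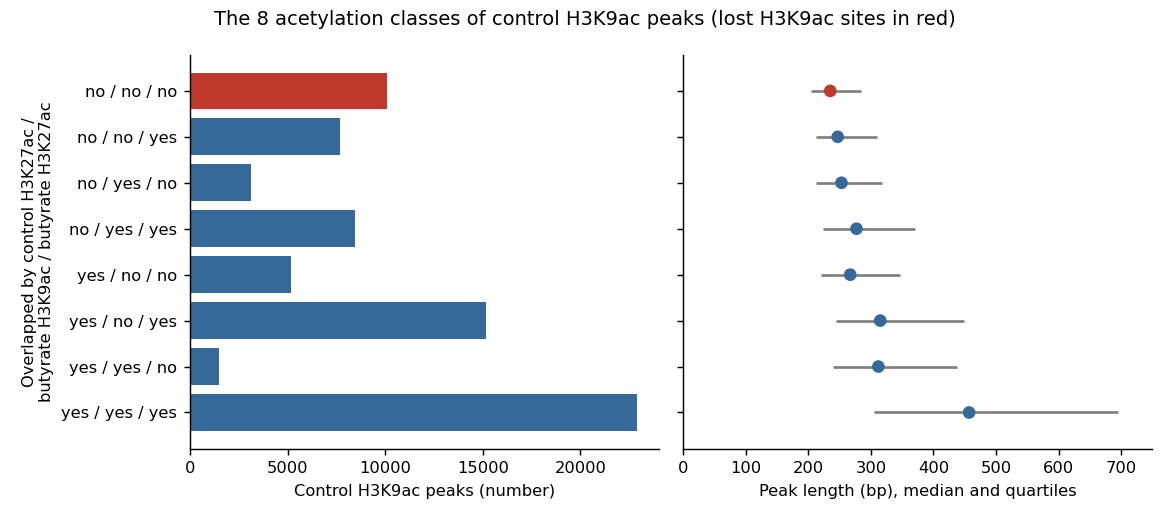
The left panel gives the number of control H3K9ac peaks in each of the 8 classes, named by whether control H3K27ac, butyrate H3K9ac and butyrate H3K27ac overlapped them, and the right panel gives the median peak length in bp with the quartiles as bars. The 10077 lost H3K9ac sites (red) have the lowest median length, 235 bp, and the peaks present in all lists the highest, 457 bp.

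The share of control peaks that became lost H3K9ac sites decreased with length. It was 31.1% at 199 bp, 22% from 200 to 249 bp, 16.8% from 250 to 299 bp, 10.2% from 300 to 399 bp, 5.08% from 400 to 499 bp and 1.47% from 500 to 999 bp. None of the 2568 control H3K9ac peaks of 1000 bp or more belonged to them, a count of 0 that allows a share of up to 0.117%. A longer peak has more bases with which to meet another list, and peak length often moves with signal strength, which was not measured. The main comparisons of the sites with the other peaks in Pol II and H3K9me3 are therefore given both over all peaks and within bins of length.

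The 10 longest lost H3K9ac sites ranged from 736 to 928 bp. The longest lay on chromosome 9 from 79718815 to 79719742 (928 bp). Its nearest butyrate acetyl peak was 47.8 kb away and its nearest control H3K27ac peak 27 kb away, and another control H3K9ac peak lay at 0.318 kb. The next longest, on chromosome 13 from 68972010 to 68972862 (853 bp), was 16.3 kb from acetylation after butyrate and 3.50 kb from control H3K27ac. These longest sites also included peaks at the edge of chromatin that stayed acetylated. A site on chromosome 1 from 77957733 to 77958520 (788 bp) had a butyrate H3K27ac peak at 0.201 kb, a butyrate H3K9ac peak at 0.240 kb and a control H3K27ac peak at 0.210 kb. The longest sites on other chromosomes were on chromosome 3 from 30113121 to 30113927 (807 bp), on chromosome 16 from 37221863 to 37222635 (773 bp), on chromosome 10 from 29875444 to 29876204 (761 bp) and on the X chromosome from 95029497 to 95030256 (760 bp). Of the 10 sites, 2 met a control Pol II peak, on chromosomes 10 and 4, and 1 met a butyrate H3K9me3 peak, on chromosome 16. Positions are those of cattle assembly UMD3.1, which the labels name. Genes and sequences at these positions are not given, because neither the sequence nor the gene models of UMD3.1 were used.

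Pol II was examined next, since it marks transcribing regions and its lists played no part in the choice of sites. Butyrate Pol II was found at 412 lost H3K9ac sites (4.09%, 95% Wilson interval 3.72 to 4.49), against 15.6% of all control H3K9ac peaks. The other control H3K9ac peaks had butyrate Pol II at 17.5% (17.2 to 17.7). Control Pol II showed a far smaller gap. It was found at 591 lost H3K9ac sites (5.86%, 5.42 to 6.34), against 7.10% of all control H3K9ac peaks and 7.30% (7.10 to 7.50) of the others.

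These differences were then compared at equal length. Among peaks of 300 to 399 bp, butyrate Pol II met 5.38% of 1449 lost H3K9ac sites (4.33 to 6.67) and 15.1% of 12735 other peaks (14.5 to 15.8). Among peaks of 500 to 999 bp the shares were 8.15% (5.00 to 13.0, 15 of 184 sites) and 29.3% (28.6 to 30.2). Butyrate Pol II was lower at lost H3K9ac sites in all 6 length bins, and the intervals did not overlap in any bin. The shares of control Pol II had overlapping intervals in each bin, for example 5.44% (4.78 to 6.17) and 4.79% (4.45 to 5.15) from 200 to 249 bp. Hence the gap in control Pol II over all peaks was not seen within length bins, whereas that in butyrate Pol II was.

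Butyrate Pol II also differed between the acetyl classes. Among control H3K9ac peaks with a butyrate H3K27ac peak, 19.1% (18.8 to 19.4) met butyrate Pol II, and among those without it 6.21% (5.88 to 6.55). Lost H3K9ac sites had the lowest share of the 8 classes. Peaks that kept H3K9ac but had no H3K27ac in either condition were at 6.70% (5.88 to 7.63), and peaks that lost H3K9ac and gained H3K27ac at 8.03% (7.45 to 8.66). Peaks with control H3K27ac that lost both marks, the class most like the lost H3K9ac sites in its fate, were at 9.02% (8.27 to 9.83). The interval of this last class overlapped that of the peaks that gained H3K27ac and lay above that of the peaks that kept only H3K9ac. The class shares were not compared at equal length. Median length was 333 bp with butyrate H3K27ac and 248 bp without it, and ranged from 235 to 457 bp over the 8 classes. The part of length in these differences was not tested.

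Few Pol II sites were shared between conditions at the lost H3K9ac sites. Of the 591 sites with control Pol II, 42 had butyrate Pol II (7.11%, 5.30 to 9.47), against 26.0% of all control H3K9ac peaks with control Pol II. The other peaks were at 28.4% (27.1 to 29.7). Without control Pol II, butyrate Pol II was at 3.90% (3.53 to 4.31) of lost H3K9ac sites and 16.6% (16.3 to 16.9) of other peaks. Butyrate Pol II was thus lower at the sites with or without control Pol II, and more frequent with it in both sets. The longest site with Pol II in both conditions lay on chromosome 29 from 44340373 to 44341102 (730 bp), with butyrate H3K27ac 1.44 kb away. Control Pol II alone was present on the sites on chromosome 10 from 29875444 to 29876204 and on chromosome 4 from 10875077 to 10875822 (746 bp). Butyrate Pol II without control Pol II was present on chromosome 1 from 111856328 to 111857014 (687 bp) and on chromosome 7 from 63778461 to 63779112 (652 bp). At these 2 sites the nearest butyrate acetyl peak was 0.587 and 0.573 kb away.

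H3K9me3, which marks the same lysine as H3K9ac, was measured at the sites to ask whether methylation was listed where acetylation was not. Butyrate H3K9me3 was found at 607 lost H3K9ac sites (6.02%, 5.58 to 6.51), against 3.61% of all control H3K9ac peaks. The other peaks were at 3.22% (3.09 to 3.36). Control H3K9me3 was found at 330 lost H3K9ac sites (3.27%, 2.94 to 3.64), against 3.45% of all control H3K9ac peaks and 3.48% (3.34 to 3.63) of the others, and these intervals overlapped. The butyrate H3K9me3 list was longer than the control list and covered 0.908% of the span of the chromosomes against 0.235%. A rise from 330 to 607 sites is thus no larger than the growth of the list, and the other peaks went from 2229 to 2065 over the same pair of lists.

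At equal length, butyrate H3K9me3 was higher at lost H3K9ac sites in all 6 bins, with intervals that did not overlap. It met 5.45% of sites at 199 bp (4.52 to 6.57), against 3.20% of other peaks (2.71 to 3.77), and 6.90% of sites from 300 to 399 bp (5.71 to 8.32), against 3.29% (2.99 to 3.61). From 500 to 999 bp the shares were 11.4% (7.59 to 16.8, 21 of 184 sites) and 3.90% (3.57 to 4.25). For control H3K9me3, the intervals overlapped in 5 of the 6 bins. The exception was the bin from 200 to 249 bp, with 3.27% (2.76 to 3.85) of sites and 2.48% (2.24 to 2.75) of other peaks.

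**Figure D2:**
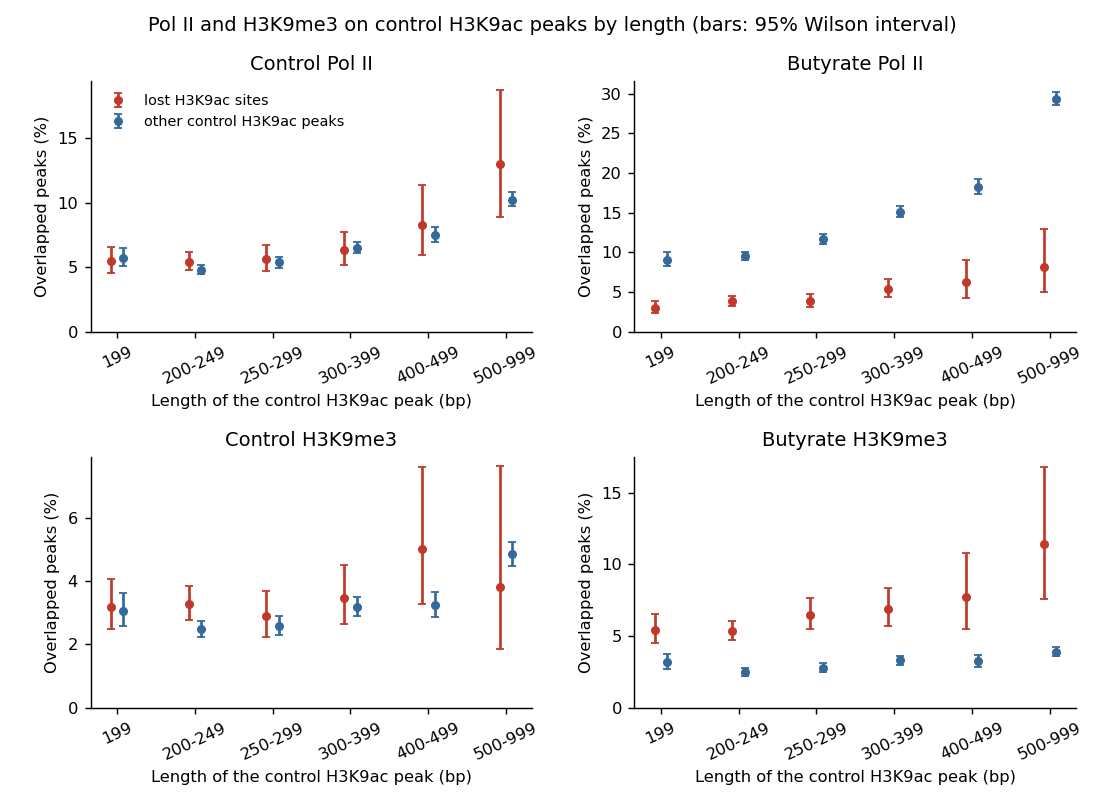
Each panel plots the share of control H3K9ac peaks (%) that a peak of the named list overlapped, by length of the H3K9ac peak in bp, for lost H3K9ac sites (red) and other control H3K9ac peaks (blue), with bars for 95% Wilson intervals. In all 6 bins the sites lie below the other peaks for butyrate Pol II (3.02% against 9.11% at 199 bp) and above them for butyrate H3K9me3 (5.45% against 3.20% at 199 bp).

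A higher share of butyrate H3K9me3 was not limited to lost H3K9ac sites. Peaks that kept H3K9ac but never had H3K27ac were at 5.78% (5.02 to 6.65), which overlaps the interval of the sites, and peaks that kept H3K9ac and lost H3K27ac were at 7.11% (5.92 to 8.53). Where H3K27ac was present in both conditions and H3K9ac was lost, the share was 1.51% (1.33 to 1.72). Over all control H3K9ac peaks it was 5.30% (5.00 to 5.63) without a butyrate H3K27ac peak and 2.98% (2.84 to 3.13) with it. Peaks with control H3K27ac that lost both acetyl marks were at 3.08% (2.65 to 3.59). These class shares were not compared at equal length either.

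At the lost H3K9ac sites, an overlap with H3K9me3 in control was followed by one after butyrate more often than for Pol II, whereas the order was the reverse over all control H3K9ac peaks. The H3K9me3 list went from 25623 to 89478 peaks and the Pol II list from 56225 to 31225, so the 2 shares are not on equal terms. Of the 330 lost H3K9ac sites with control H3K9me3, 84 had butyrate H3K9me3 (25.5%, 21.1 to 30.4), against 15.9% of all control H3K9ac peaks with control H3K9me3. The other peaks were at 14.4% (13.0 to 16.0). Without control H3K9me3, butyrate H3K9me3 was at 5.37% (4.94 to 5.83) of lost H3K9ac sites and 2.82% (2.69 to 2.95) of other peaks. Butyrate H3K9me3 was thus higher at the sites with or without control H3K9me3, and more frequent with it in both sets. A pair of sites with H3K9me3 in both conditions lay close together on chromosome 6. They ran from 86523165 to 86523744 (580 bp) and from 86557778 to 86558480 (703 bp), 3.35 and 9.38 kb from the nearest butyrate acetyl peak. The longest site with control H3K9me3, on chromosome 2 from 106022654 to 106023359 (706 bp), had no H3K9me3 peak after butyrate. The longest with butyrate H3K9me3 was on chromosome 16 from 37221863 to 37222635, and a further site was on chromosome 5 from 89634360 to 89635068 (709 bp).

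Most lost H3K9ac sites had neither protein nor methyl mark listed. Of the 10077 sites, 8432 (83.7%) met none of the 4 Pol II and H3K9me3 lists, compared with 73.7% of the other control H3K9ac peaks. The single most frequent combination among the rest was butyrate H3K9me3 alone (433 sites, 4.30%), followed by control Pol II alone (429 sites, 4.26%) and butyrate Pol II alone (337 sites, 3.34%). Among the other peaks these were 1.72%, 4.37% and 14.2%. None of these shares was compared at equal length, and the sites were shorter than the other peaks.

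The surroundings of the sites were described to learn whether they lay in chromatin without acetylation. Most sites had a butyrate acetyl peak within 10 kb, but such peaks lay farther off than from the other control H3K9ac peaks. The nearest butyrate acetyl peak was within 1 kb for 5158 sites (51.2%), with a median distance of 0.955 kb. It was over 10 kb away for 911 sites (9.04%). A butyrate H3K27ac peak lay within 1 kb of 40.0% of sites and 93.6% of the other control H3K9ac peaks. For butyrate H3K9ac these shares were 32.3% and 77.4%. The choice itself sets part of this gap, because each of the other peaks met at least 1 of the 3 acetyl lists. The median distance from the sites was 1.59 kb to butyrate H3K27ac, 2.08 kb to butyrate H3K9ac and 2.37 kb to control H3K27ac. Between 1 and 10 kb on either side of their centres, control H3K9ac covered 5.63% of bases and butyrate H3K9ac 4.75%, while H3K27ac covered 6.61% in control and 9.38% after butyrate. Around the other control H3K9ac peaks, H3K9ac went from 9.51% to 7.80% and H3K27ac from 11.9% to 18.7%. In both groups, then, the flanks had less listed H3K9ac and more listed H3K27ac after butyrate, at lower coverage around the lost H3K9ac sites. Both groups were centred on control H3K9ac peaks. Over all nuclear chromosomes, listed H3K9ac went up instead, from 1.09% to 1.39% of the span. Around butyrate H3K9ac peaks with no peak in the other 3 acetyl lists, it went from 2.54% to 4.01% of flanking bases. The part of the centring in these values was not tested.

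At the threshold of the choice, 577 sites had a peak of the 3 other acetyl lists within 50 bp, and 808 other control H3K9ac peaks were overlapped by at most 50 bp. Their median lengths were 235 and 238 bp. Butyrate Pol II was at 3.64% of the former and 4.70% of the latter, butyrate H3K9me3 at 4.68% and 4.21%, control Pol II at 5.20% and 6.56%, and control H3K9me3 at 2.60% and 4.21%. Within 10 bp of the threshold, where 120 sites and 128 other peaks lay, butyrate Pol II was at 2.50% and 7.03% and butyrate H3K9me3 at 4.17% and 4.69%. Within 100 bp, with 1217 sites and 2119 other peaks, these values were 4.11% and 5.80% for butyrate Pol II and 4.60% and 4.15% for butyrate H3K9me3. Both Pol II lists and control H3K9me3 were thus lower just inside the threshold at each of the 3 distances, and butyrate H3K9me3 had no constant direction. The groups are nested, so the 3 distances are not separate observations, and the smallest holds few overlapped sites. Near the threshold the gaps were narrower than over all peaks, where butyrate Pol II was at 4.09% against 17.5% and butyrate H3K9me3 at 6.02% against 3.22%.

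Profiles around the centres showed where Pol II and H3K9me3 lay. Butyrate Pol II was listed at the centre of 2.81% of lost H3K9ac sites and, 1 kb upstream in the coordinates, at 1.43%. The same values for other control H3K9ac peaks were 10.6% and 3.58%. Butyrate H3K9me3 was listed at the centre of 3.98% of lost H3K9ac sites, at 1.34% 1 kb away and at 1.46% 10 kb away, so that the flanks were flat. Around the other peaks it was 1.86% at the centre, 0.757% at 1 kb and 1.16% at 10 kb, which is a dip next to the peaks that the lost H3K9ac sites lacked.

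**Figure D3:**
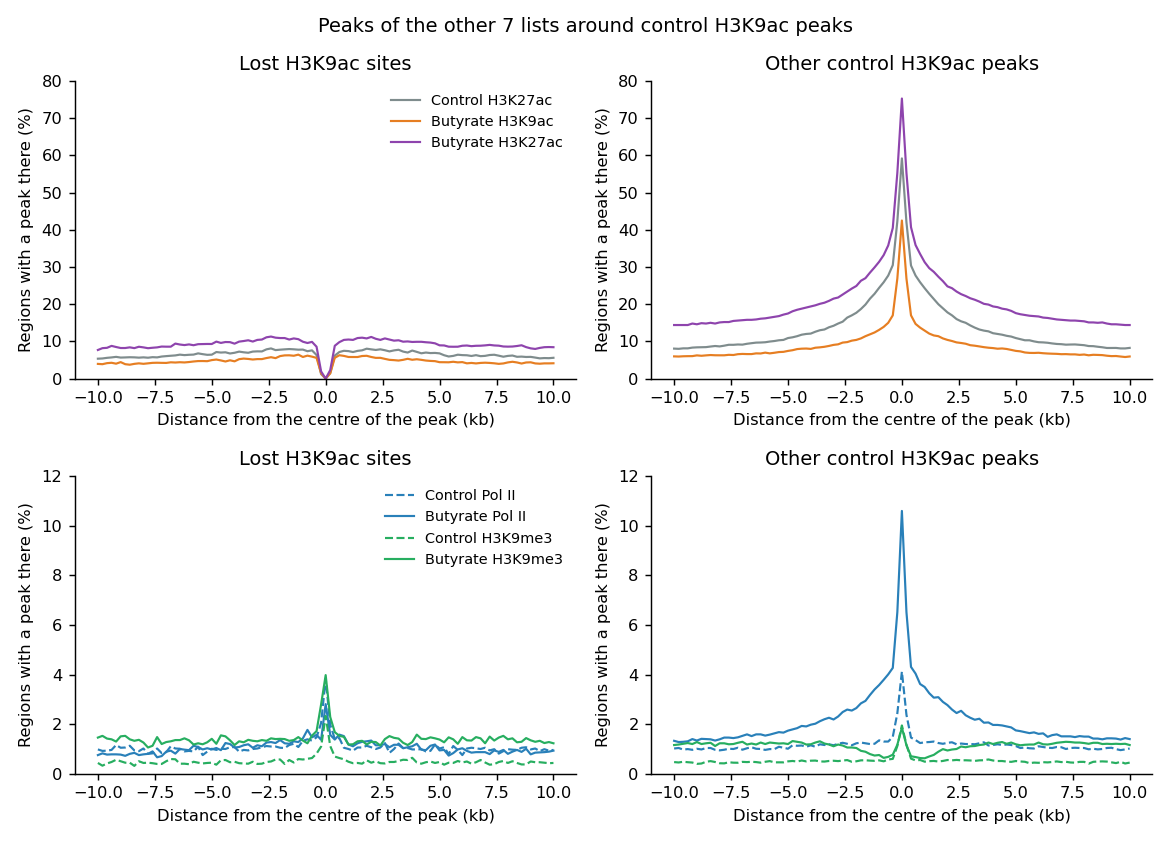
The panels plot the share of regions (%) with a peak of each list up to 10 kb on either side of the centre of the control H3K9ac peak, for lost H3K9ac sites (left) and other control H3K9ac peaks (right), with acetyl lists above and Pol II and H3K9me3 below. The gap in acetylation at the centre of the sites follows from how they were chosen. Butyrate Pol II reaches 10.6% at the centre of the other peaks and 2.81% at the sites.

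The sites were then grouped by distance to the nearest butyrate acetyl peak. Butyrate H3K9me3 was listed at 4.13% (3.62 to 4.71) of the 5158 sites within 1 kb and at 7.44% (6.59 to 8.40) of the 3224 sites at over 1 to 5 kb. It was listed at 7.27% (5.65 to 9.30) of the 784 sites at over 5 to 10 kb and at 9.08% (7.25 to 11.3) of the 771 sites at over 10 to 50 kb. At over 50 kb it was listed at 19.3% (13.6 to 26.6) of the 140 sites. Control H3K9me3 was listed at 2.31% (1.93 to 2.75) of the nearest group and at 14 of the 140 farthest sites (6.05 to 16.1%). Its shares between these were 3.60%, 5.61% and 4.80%. Butyrate Pol II was 4.46% (3.93 to 5.06) within 1 kb and 9.29% (5.51 to 15.2, 13 of 140 sites) at over 50 kb. In the groups between it was lower than in the nearest one, at 3.50%, 3.57% and 3.63%. Control Pol II was 5.18% (4.60 to 5.82) within 1 kb, then 6.39%, 5.23% and 7.78%, and 12.1% (7.72 to 18.6) at over 50 kb. All 4 lists were thus highest at the most remote sites, but none of them rose at every step of distance. Median length changed little, from 236 to 227 bp.

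**Figure D4:**
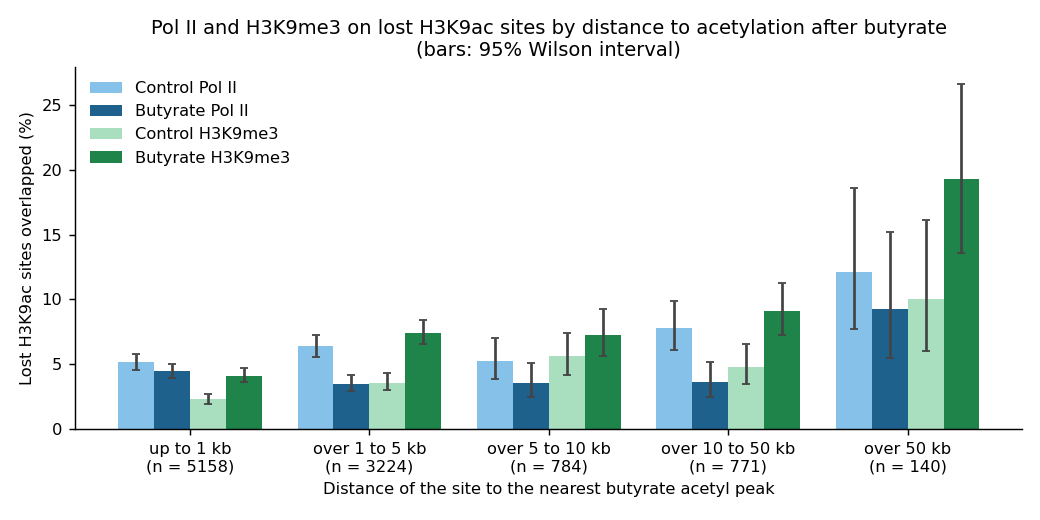
Bars give the share of lost H3K9ac sites (%) overlapped by each Pol II and H3K9me3 list, in 5 groups by distance to the nearest butyrate acetyl peak, with 95% Wilson intervals. Butyrate H3K9me3 goes from 4.13% within 1 kb to 19.3% at over 50 kb, a group of 140 sites.

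The 3 sites farthest from any butyrate acetyl peak were all short. They lay on chromosome 17 from 51655412 to 51655684 (273 bp) and from 50563266 to 50563464 (199 bp), 1340 and 1190 kb from acetylation after butyrate, and on chromosome 3 from 72707975 to 72708199 (225 bp), at 1050 kb. All 3 were overlapped by control Pol II. Both sites on chromosome 17 were also overlapped by butyrate H3K9me3, and the shorter of them by control H3K9me3.

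Lost H3K9ac sites tended to follow one another. Both neighbouring control H3K9ac peaks were also lost H3K9ac sites for 6.06% of them, against 1.89% of the other control H3K9ac peaks. Exactly 1 neighbour was a lost H3K9ac site for 34.7%, against 20.3% of the other peaks. Single sites between other peaks made up 59.3%, and 77.8% of the other peaks had no such neighbour. The neighbours were classed by the same acetyl lists as the sites. The longest unbroken run held 8 sites over 142 kb on chromosome 14, from 13885211 to 14027206. This stretch also had 7 control Pol II and 10 butyrate H3K9me3 peaks, with 5 butyrate H3K9ac and 3 butyrate H3K27ac peaks between the sites. A run of 7 sites on chromosome 8 from 47878706 to 47919200 (40.5 kb) had no butyrate acetyl peak, no control H3K27ac peak and no Pol II peak within it, and 2 butyrate H3K9me3 peaks. Another of the 3 runs of 7, on chromosome 2 from 38197433 to 38322859, held 2 peaks each of butyrate H3K9ac and butyrate H3K27ac.

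Lost H3K9ac sites were spread over the genome. Of 2677 windows of 1 Mb, 1947 held at least 1, with a median of 4 in these windows. Only 22 windows held 20 or more, which together had 5.64% of the sites. Most were in the window of chromosome 16 from 37000001 to 38000000, where 35 of 173 control H3K9ac peaks were lost H3K9ac sites and 5 of the 35 met butyrate H3K9me3. There the bases covered by H3K9ac went from 87.4 to 40.2 kb and those covered by H3K27ac from 89.2 to 76.0 kb. The next was on chromosome 6 from 88000001 to 89000000, with 34 of 103 peaks, or 33.0%. In that window the bases covered by H3K9ac went from 48.9 to 33.5 kb, while those covered by H3K27ac went from 59.3 to 75.8 kb. The third, with 33 of 132 peaks, was on chromosome 1 from 21000001 to 22000000, where H3K9ac went from 62.8 to 57.2 kb and H3K27ac from 64.6 to 114 kb.

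Among the 1296 windows with at least 20 control H3K9ac peaks, the median share of lost H3K9ac sites was 12.9%, and from the 10th to the 90th percentile it ranged from 4.89 to 23.9%. The highest share, 45.0% or 9 of 20 peaks, was found in 2 windows of chromosome 13, from 50000001 to 51000000 and from 67000001 to 68000000. The latter had more listed acetylation after butyrate around its lost H3K9ac sites, as H3K27ac went from 39 to 73 peaks and H3K9ac from 20 to 38 peaks (6.21 to 11.2 kb). The window on the X chromosome from 60000001 to 61000000 had 10 of 23 peaks (43.5%), and there listed H3K9ac went from 6.40 to 0.301 kb (1 peak) and H3K27ac from 12.8 to 4.59 kb. None of the sites in these 3 windows met Pol II or H3K9me3.

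The X chromosome had the highest share by chromosome. Of its 852 control H3K9ac peaks, 179 were lost H3K9ac sites (21.0%, 18.4 to 23.9). The autosomes ranged from 11.0% (9.55 to 12.6) on chromosome 22 to 15.5% (14.2 to 16.8) on chromosome 14. In numbers per Mb, relative to all nuclear chromosomes, the sites were sparse on the X chromosome (0.318) and dense on chromosomes 5 (1.62) and 14 (1.43). The other control H3K9ac peaks had relative densities of 0.188, 1.67 and 1.23 on these chromosomes.

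Chromosomes 5 and 14 stood apart in the Pol II and H3K9me3 lists. The relative density of control Pol II was 2.71 on chromosome 5 and 2.55 on chromosome 14. That of control H3K9me3 was 3.60 and 3.27, and that of butyrate H3K9me3 was 2.01 and 2.13. Of the 1203 lost H3K9ac sites on both, 16.5% (14.5 to 18.7) met butyrate H3K9me3 and 14.8% (12.9 to 16.9) control Pol II. On the other chromosomes these shares were 4.60% (4.18 to 5.05) and 4.65% (4.24 to 5.11) of 8874 sites. The contrasts with other control H3K9ac peaks in butyrate H3K9me3 and butyrate Pol II were present in both parts. Butyrate H3K9me3 met 9.09% (8.46 to 9.77) of the other peaks on chromosomes 5 and 14 and 2.46% (2.33 to 2.59) elsewhere. Butyrate Pol II met 5.32% (4.19 to 6.74) of the sites and 21.6% (20.7 to 22.6) of the other peaks on chromosomes 5 and 14, against 3.92% (3.54 to 4.35) and 16.9% (16.6 to 17.2) elsewhere. Control Pol II met 15.8% (15.0 to 16.7) of the other peaks on chromosomes 5 and 14 and 6.19% (5.99 to 6.39) elsewhere. Its intervals overlapped those of the sites on chromosomes 5 and 14 but not elsewhere. Control H3K9me3 met 10.6% (8.94 to 12.4) of the sites and 10.4% (9.69 to 11.1) of the other peaks on chromosomes 5 and 14. Elsewhere it met 2.29% (2.00 to 2.62) and 2.58% (2.46 to 2.72), so these intervals overlapped in both parts. The part of these 2 chromosomes in the result was not tested further.

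Chromosome by chromosome, butyrate Pol II was lower at lost H3K9ac sites than at other control H3K9ac peaks on all 30, from 1.90 to 7.61% of sites against 9.66 to 22.4% of other peaks. Butyrate H3K9me3 was higher at the sites on 26 of 30, with chromosomes 18, 21, 24 and 29 as exceptions, each with 4 or fewer sites that met the mark. Control Pol II was lower at the sites on 26 chromosomes, and control H3K9me3 on 19.

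**Figure D5:**
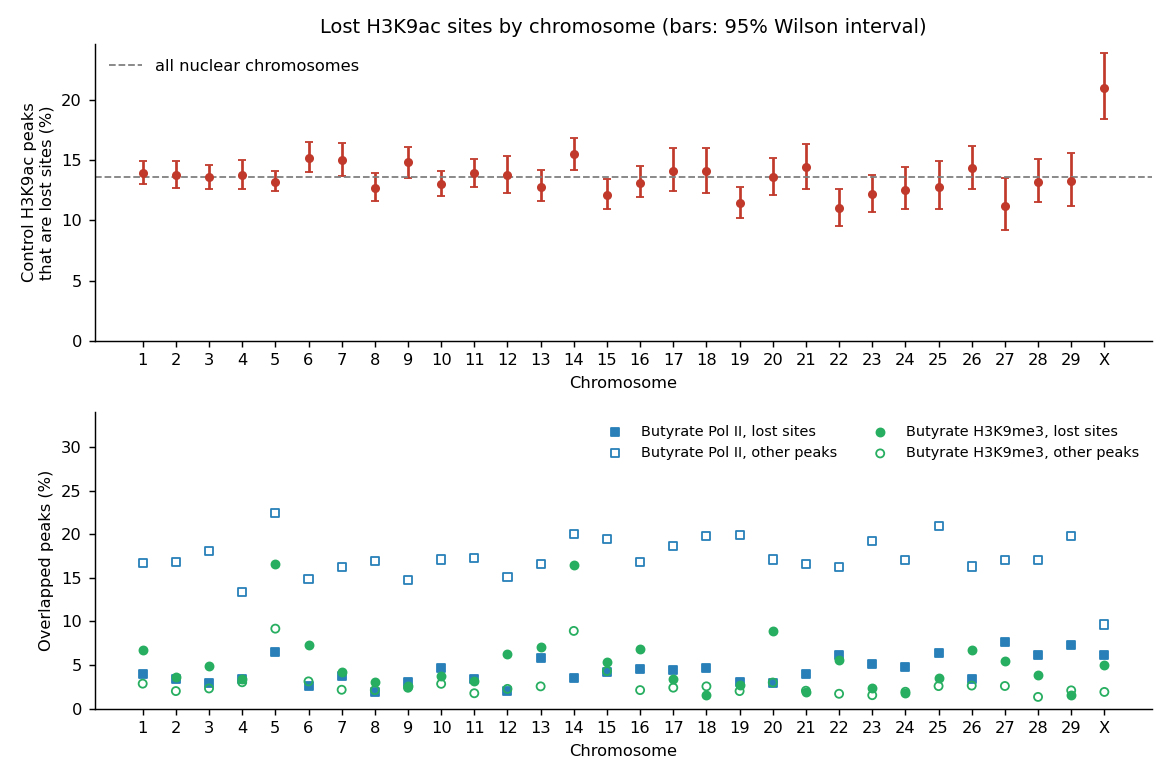
The upper panel plots the share of control H3K9ac peaks (%) that were lost H3K9ac sites on each chromosome, with 95% Wilson intervals and a dashed line at 13.6%. The lower panel plots the share (%) of sites (filled) and of other control H3K9ac peaks (open) that met butyrate Pol II (squares) or butyrate H3K9me3 (circles). The X chromosome is highest in the upper panel at 21.0%, and chromosomes 5 and 14 are highest for butyrate H3K9me3 at 16.6% and 16.5% of sites.

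Finally, the sites were set beside their mirror image, the butyrate H3K9ac peaks with no control H3K9ac, control H3K27ac or butyrate H3K27ac peak. There were 36790 such new H3K9ac sites, 32.0% of 115104 butyrate H3K9ac peaks (31.7 to 32.2), or more than 3 for each lost H3K9ac site. Their median length was 239 bp (238 to 239), and 20.8% were at the shortest length of 199 bp, both close to the values of the lost H3K9ac sites. In the Pol II and H3K9me3 lists, butyrate Pol II was at 2.79% (2.62 to 2.96) of new H3K9ac sites, control Pol II at 5.68% (5.45 to 5.92), control H3K9me3 at 2.71% (2.55 to 2.88) and butyrate H3K9me3 at 5.06% (4.84 to 5.28). Over all butyrate H3K9ac peaks, the list from which the new sites were drawn, butyrate Pol II was at 11.2% (11.0 to 11.4) and butyrate H3K9me3 at 4.11%. Both sets thus had butyrate Pol II below and butyrate H3K9me3 above the share in their own list, and for butyrate H3K9me3 the gap was smaller at new H3K9ac sites than the 6.02% against 3.61% at the lost ones. Each list includes its own set, 32.0% of it for new sites and 13.6% for lost ones, which by itself narrows the gap more for new sites. These shares were not compared at equal length.

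The mirror sets differed in their surroundings. The nearest butyrate H3K9ac peak was a median of 2.08 kb from lost H3K9ac sites, whereas the nearest control H3K9ac peak was 9.45 kb from new H3K9ac sites. Of the lost H3K9ac sites, 32.3% had a butyrate H3K9ac peak within 1 kb, and 11.4% of the new ones had a control H3K9ac peak that near. The butyrate H3K9ac list is the longer of the 2, which by itself shortens distances to it. Coverage was also compared between 1 and 10 kb from the centre. The H3K9ac list from which each set was drawn covered 5.63% of bases around lost sites and 4.01% around new ones. The H3K9ac list of the other condition covered 4.75% around lost sites and 2.54% around new ones. On the X chromosome, 303 of 601 butyrate H3K9ac peaks (50.4%, 46.4 to 54.4) were new H3K9ac sites, so that both sets took a higher share there than over the genome.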

How the data were processed

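According to the methods and labels, reads of 75 nt were aligned with BWA to cattle assembly UMD3.1 and peaks were called in each library with MACS2 at default settings against 1 input. The deposited lists give peak positions (chromosome and both ends, in bp) and no height or score. The shortest end minus start was 199 bp, so starts may already be counted from 1. They were read as counted from 0, and printed starts are 1 higher. Mitochondrial peaks were left out. The sites and comparisons were chosen with earlier results of these data known. Overlap meant at least 1 bp. Shares have 95% Wilson intervals and medians exact binomial intervals. For a count of 0, the limit given is not a Wilson limit but 3 divided by the number of peaks. Named regions were the 10 longest sites, the 3 windows of 1 Mb with the most sites and with the highest share, the 3 longest runs, the 3 longest sites in each Pol II and H3K9me3 list, the 3 farthest from butyrate acetylation and up to 5 sites in all 4 lists. Alternatives were a minimum peak length, joined peaks, other overlap rules, shortened butyrate lists and fewer chromosomes. No test was run. Overlap, coverage and distance functions were tested on simulated data. The gene table at hand was of another assembly (ARS-UCD2.0), and on 10 chromosomes peaks lay more than 1 Mb past its last gene, so it was not used. Python 3.11.15, numpy 2.4.6, scipy 1.17.1, pandas 2.3.3 and matplotlib 3.10.9 were used.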

Additional observations from a re-analysis of the deposited data

How the results depend on the processing

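No paired analysis was possible because no condition had a second library of any antibody. Of 64 alternative values, 33 stayed inside the 95% interval of the value reported and 31 moved out of it. The share of control H3K9ac peaks that were lost sites moved to 15.3% with peaks joined across less than 1 kb, 19.0% when up to 50% of a peak could be covered, 5.55% when no acetyl peak within 1 kb was allowed and 19.8% with butyrate lists cut to their longest peaks. Median length was 245, 232 and 238 bp in the last 3. A minimum of 500 bp in every list gave 587 bp by construction, Pol II at 0.195% (control) and 0.879% (butyrate), H3K9me3 at 0.0% (control, 0 of 2048 sites, which allows up to 0.146%) and 0.537% (butyrate) and a density of 0.227 on the X chromosome. Joined peaks gave 6.92% for control Pol II, 3.97% for control H3K9me3 and 7.23% for butyrate H3K9me3. With no acetyl peak within 1 kb these were 7.03%, 4.60% and 8.10%, and the densities of chromosomes 5 and 14 were 1.87 and 1.64. Without chromosomes 5 and 14 they were 4.65%, 2.29% and 4.60%. The midpoint of the site gave 3.84% and 2.81% for control and butyrate Pol II, and 2.33% and 3.98% for control and butyrate H3K9me3. Butyrate Pol II was 5.07% with 50% coverage and 4.75% with the longest peaks, where butyrate H3K9me3 was 2.17%. Apart from the changes that the minimum length, the list size or the chromosomes left out make by construction, the cause was not tested. Under all 7 alternatives that redefine the sites or the lists, butyrate Pol II was lower and butyrate H3K9me3 higher than at other control H3K9ac peaks. For butyrate H3K9me3, joined peaks brought the shares closest as a ratio, 7.23% against 5.37%. The 500 bp minimum brought them closest in percentage points, 0.537% against 0.130%, and rested on 11 sites.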

Other observations

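Sites that met all 4 Pol II and H3K9me3 lists were few. There were 11 among the 10077 lost H3K9ac sites (0.109%) and 75 among the 64037 other control H3K9ac peaks (0.117%), which is the same share within counting error. Of the 11, 3 lay on chromosome 5 and 2 each on chromosomes 2, 24 and X. The longest were on the X chromosome from 50619426 to 50619690 (265 bp), on chromosome 24 from 47849357 to 47849615 (259 bp), on chromosome 17 from 14234505 to 14234758 (254 bp) and on chromosome 5 from 72569173 to 72569418 (246 bp) and from 82863389 to 82863616 (228 bp). The sites on the X chromosome and chromosome 24 were 173 and 70.4 kb from the nearest butyrate acetyl peak, and the first of those on chromosome 5 was 0.137 kb from one.

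Pol II and H3K9me3 coincided within a condition at lost H3K9ac sites. Of the 591 sites with control Pol II, 10.8% (95% Wilson interval 8.57 to 13.6) also met control H3K9me3, against 2.80% (2.49 to 3.16) of the sites without control Pol II. After butyrate, H3K9me3 met 8.98% (6.59 to 12.1) of the 412 sites with Pol II and 5.90% (5.45 to 6.38) of the rest. At the other control H3K9ac peaks these pairs of values were 11.7% and 2.84% in control, and 4.87% and 2.88% after butyrate.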
